A study of Mus musculus with 42 samples.

Results

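The response of mouse liver to TCPOBOP, an agonist of the constitutive androstane receptor (CAR), was compared between a standard diet and a diet with cholesterol, as the log2 fold change of TCPOBOP over vehicle on cholesterol diet minus the same on standard diet. The comparison used 23 of the 42 samples of the series, each the liver of 1 mouse on 1 two-colour cDNA array whose mouse probes stand for 277 genes. The groups were vehicle (n = 6) and TCPOBOP (n = 6) on standard chow, and vehicle (n = 5) and TCPOBOP (n = 6) on cholesterol diet. A sixth vehicle mouse on cholesterol diet, replicate 2, had no scanner intensities in the files used here and was left out of these values. All were female C57BL/6 mice, 1 injection was given into the peritoneum, of corn oil or of 3 mg/kg TCPOBOP in corn oil, and the left lateral lobe was taken after 24 hours. The diet with 1% cholesterol had been given for 1 week before the injection. The paper names this feed as a Western diet, and its supplement labels the contrast as high fat against normal diet. Other components that differed between the feeds cannot be told apart from cholesterol, and "cholesterol diet" below means the whole feed. The mice treated with TCPOBOP on cholesterol diet were 18 weeks old and those of the other groups 19 weeks, so this age difference cannot be told apart from that group. Each level below is a log2 ratio of the mouse (Cy3) to a pool of the study's RNA samples (Cy5, reference 1 in the labels), and each response is a difference of such levels between groups.

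CAR is a nuclear receptor that in hepatocytes switches on genes for the oxidation, conjugation and export of drugs and bile acids, with Cyp2b10 as its best known target in mice. Dietary cholesterol works on the same cells by another route: sterols in the endoplasmic reticulum keep the SREBP transcription factors from being cleaved, and the genes of cholesterol synthesis then fall. The interaction of treatment and diet asks whether the liver answers CAR activation in the same way in both states.

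The median signal of the sample channel was 157.68 to 297.11 per array and 62.0% to 79.6% of the probes lay above background, and the number of arrays limits the precision. Of 253 pairs of arrays, 91 had a correlation under -0.3 over all probes, all of them between a TCPOBOP and a vehicle array, with -0.67 as the lowest; the labels state the dyes, so the direction was kept. Cyp2e1 and 6 other hepatocyte genes of the array lay above background on most arrays, the single macrophage gene (Msr1) lay below background on every array, and 0 genes of the lists for blood, endothelial, stellate and bile duct cells are on the array. Of 5 adipocyte genes measured, 2 were lower with TCPOBOP on standard diet (Slc2a4, with a response of -0.34, and Adipoq, with -0.12) and 0 on cholesterol diet, where 21.3% and 14.4% of all genes were lower; their part in the results was not tested. In bulk liver, fewer cells of a type and less RNA per cell cannot be told apart.

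TCPOBOP moved the liver transcripts of both diets in much the same direction. On standard diet 120 of the 277 genes (43.3%) passed an adjusted p of 0.05 from limma, 61 higher and 59 lower, and on cholesterol diet 104 (37.5%) did, 64 higher and 40 lower. Of these, 74 genes passed on both diets, 49 higher and 25 lower, and 0 passed in opposite directions, which makes 61.7% of the calls on standard diet and 71.2% of those on cholesterol diet. Over all 277 genes the 2 responses, which share no arrays, had a Pearson's r of 0.89 (Spearman's rho 0.81), a description across genes that are not independent. The sign was the same for 224 genes, and among the 150 genes that passed on at least 1 diet it differed for 9. The median size of the response of the 74 shared genes was 0.71 on the log2 scale on standard diet and 0.61 on cholesterol diet, and it was larger on standard diet for 42 of them.

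**Figure D1:**
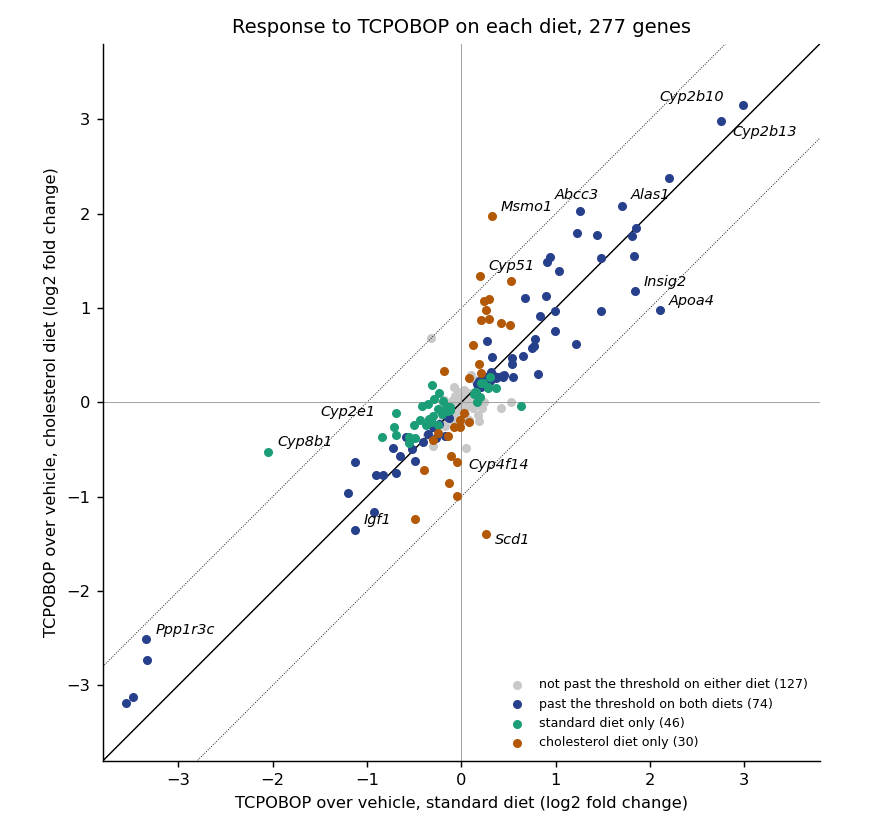
Log2 fold change of TCPOBOP over vehicle for 277 genes, on standard diet (horizontal axis) and on cholesterol diet (vertical axis), with equality as a solid line and a difference of 1 log2 unit as dotted lines. Most genes lie near the solid line, Msmo1, Cyp51 and Cyp8b1 lie above it, Apoa4, Insig2 and Scd1 below it, and colours give the 74 genes past the threshold on both diets, the 46 on standard diet only and the 30 on cholesterol diet only.

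The difference between the responses was itself tested for every gene, and 0 of 277 genes (0%) passed an adjusted p of 0.05 from limma. At an unadjusted p under 0.05 there were 36 genes (13% of those tested), 22 (7.94%) with a more positive and 14 (5.05%) with a more negative response on cholesterol diet, and 17 (6.14%) met the threshold the study used for its comparisons, an unadjusted p under 0.05 with a false discovery rate under 0.16. The smallest adjusted p was 0.0528, shared by Cyp4f14, Abcc3, Apoa4, Cyp2e1, Foxa2 and Pparg. The genes of this kind named below are therefore tendencies and not calls. Of the 36 genes, 7 lay below background on all arrays of at least 1 group, and 3 of these on every array. Of all 277 genes, 50 lay below background on every array. When the test kept the 197 genes above background on at least 12 of the 23 arrays, Abcc3, Apoa4 and Cyp4f14 passed. Of these 197 genes, 29 had an unadjusted p under 0.05. Over all 277 genes, those below background included, the median standard error of the difference was 0.125, so a typical 95% interval reached 0.260 to either side.

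A gene was taken to respond alike when it passed on both diets in 1 direction and the 95% interval of the difference stayed within 1 log2 unit, a factor of 2. This held for 62 of the 277 genes (22.4%), 41 higher and 21 lower, and for 43 with a limit of 1.5-fold. Of the 62, 53 were above background on at least 1 array of every group, and for the other 9 the interval describes fitted values and sets no limit. Of the 53, 5 had a difference with an unadjusted p under 0.05 inside that limit, among them Mlxipl, Cyp3a13, Cyp3a25 and C4bp. The other 12 genes that passed on both diets had wider intervals. Under median centring of the arrays the count was 38 and under centring on spike-in spots it was 27.

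The Cyp2b genes had the largest mean responses among the genes that responded alike. All 7 of 7 measured members of the drug-metabolizing Cyp2b and Cyp3a families passed upward on both diets, beside 49 of all 277 genes. Cyp2b10, the marker of CAR activation, lay at -1.75 (lowest), -1.51 (median) and -1.42 (highest) in vehicle mice on standard diet and at 1.28, 1.39 and 1.71 with TCPOBOP. On cholesterol diet the vehicle mice lay at -1.42, -1.90, -2.01, -1.84 and -2.88 (replicates 1, 3, 4, 5 and 6), and the TCPOBOP mice at 0.99, 1.15 and 1.30. On both diets every treated mouse was above every vehicle mouse, and the groups of 1 treatment overlapped between diets. The log2 fold change on standard diet was 2.98 (standard error 0.15, adjusted p = 1.10e-12 from limma). On cholesterol diet it was 3.15 (standard error 0.16, adjusted p = 9.25e-13 from limma), and the difference was 0.17 (95% interval -0.28 to 0.63). By RT-PCR the paper reported far larger folds of Cyp2b10 on both diets, with a wide spread and the larger mean on standard diet. The interval thus holds for array ratios and sets no limit on the difference of the RT-PCR folds.

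Cyp2b13 and Cyp2b9, paralogs of Cyp2b10, followed it. Their responses were 2.76 and 2.98 for Cyp2b13 and 2.20 and 2.37 for Cyp2b9, on standard and on cholesterol diet, and the intervals of the differences were -0.32 to 0.76 and -0.29 to 0.64. cDNA probes of such close paralogs can bind each other's transcripts, so these 3 are not separate measurements. Cholesterol vehicle replicate 6 was the lowest of its group for all 3 genes. The sign of their differences depended on the kind of scanner file: within the 7 arrays whose files give spot positions in micrometres, with 1 vehicle mouse on cholesterol diet, they were -0.65 (standard error 0.12) for Cyp2b10, -0.50 (0.31) for Cyp2b13 and -0.74 (0.11) for Cyp2b9. Within the 16 arrays with positions in millimetres they were 0.44 (0.25), 0.42 (0.29) and 0.47 (0.24).

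The Cyp3a genes, the main oxidases of bile acids and many drugs, leaned toward a larger response on cholesterol diet. Cyp3a11 responded by 1.04 (standard error 0.20) on standard and 1.39 (standard error 0.21) on cholesterol diet, with a difference of 0.35 (95% interval -0.26 to 0.96). That interval lies close to the limit of 1 log2 unit, and in 12 of the 23 fits that each left out 1 array Cyp3a11 no longer counted as alike, as Cyp3a13 did not in 5. Cyp3a25 responded by 1.44 and 1.77, and its difference was 0.33 (95% interval 0.02 to 0.64, unadjusted p = 0.0385, adjusted p = 0.314 from limma). Cyp3a13 lay at -0.32, -0.25 and -0.02 in vehicle mice on standard diet and at -1.45, -0.40, -0.86, -1.0 and -0.98 in those on cholesterol diet, a gap of -0.72 between diets (adjusted p = 0.000580). With TCPOBOP it lay at 0.66, 1.05 and 1.39 and at 0.67, 0.89 and 1.02. The vehicle groups did not overlap while the TCPOBOP groups did, and the difference of the responses was 0.57 (95% interval 0.17 to 0.96, adjusted p = 0.119). The 4 measured Cyp3a genes had a positive difference over all arrays and within each kind of scanner file. Binding between close paralogs, named above for the Cyp2b probes, was not tested here either, so the 4 may not be separate measurements.

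Of 15 other P450s and oxidation genes 5 responded alike, 3 passed on standard diet only and 2 on cholesterol diet only. Beside them stand 62, 46 and 30 of all 277 genes, so these counts do not set the list apart. Cyp1a2, which oxidizes aromatic amines and caffeine, rose by 1.81 and 1.77 on standard and cholesterol diet, with a difference of -0.04 (95% interval -0.57 to 0.49). Cyp26a1, which degrades retinoic acid, rose by 1.85 on both diets, with an interval of -0.64 to 0.64. Cyp2a4, a steroid hydroxylase, rose by 1.83 and 1.55 (interval -0.62 to 0.06), although its level with TCPOBOP was lower on cholesterol diet by 0.76 (adjusted p = 0.000356), with groups that did not overlap. Alas1, whose product starts heme synthesis and limits its rate, rose by 1.70 and 2.08, and its interval of -0.30 to 1.06 was too wide to place it among the genes that respond alike; within micrometre arrays its difference was -0.81 and within millimetre arrays 0.79.

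Genes outside drug metabolism were also shared. Mbtps1, the site-1 protease that makes the first cut in SREBP proteins, rose by 1.48 (standard error 0.14) and 1.53 (standard error 0.15), with a difference of 0.05 (95% interval -0.38 to 0.48). Igf1, the growth factor that the liver secretes under growth hormone, fell by 1.13 on standard diet and fell by 1.35 on cholesterol diet. Cebpa, a transcription factor of differentiated hepatocytes, fell by 1.21 and by 0.97, and every treated mouse lay below every vehicle mouse on both diets for both genes. Adipor2, a receptor for adiponectin, fell by 0.91 and by 0.77 (interval of the difference -0.24 to 0.51).

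**Figure D2:**
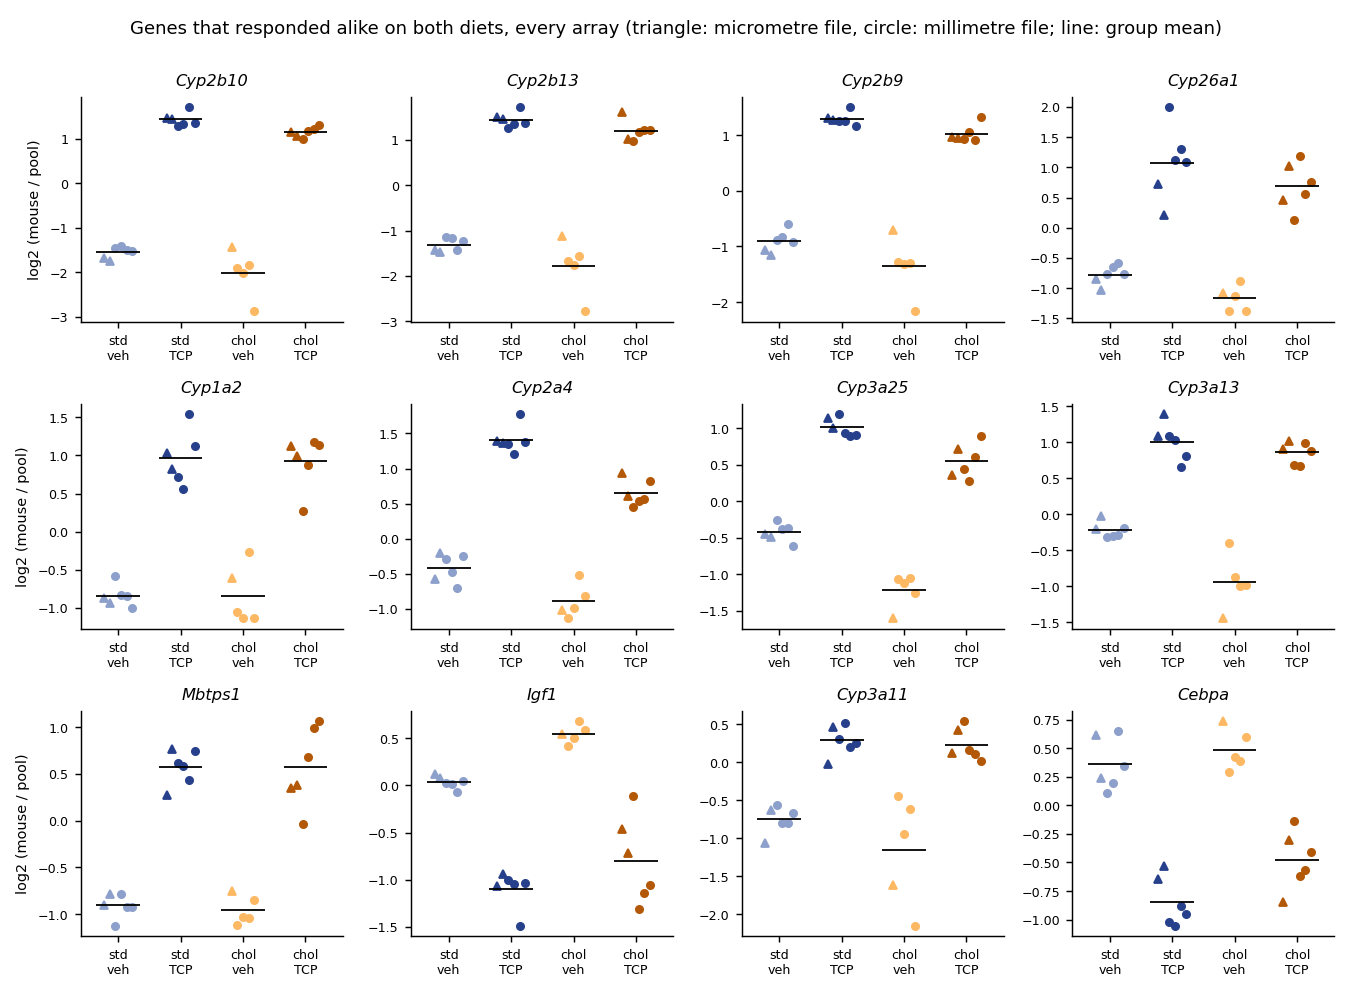
Log2 ratio of mouse to pool on every array for the 12 genes with the largest mean response among those that responded alike, by group (std, standard diet; chol, cholesterol diet; veh, vehicle; TCP, TCPOBOP); triangles and circles mark the 2 kinds of scanner file and lines the group means. In each panel the TCPOBOP groups lie apart from the vehicle groups of the same diet, above them for 10 genes and below them for Igf1 and Cebpa.

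Among genes that TCPOBOP raised on both diets, Abcc3 showed the clearest tendency toward a larger response on cholesterol diet. Abcc3, which exports glucuronides and bile salts from hepatocytes into blood, lay at -0.42, -0.40 and 0.03 in vehicle mice on standard diet and at -0.86, -0.96, -0.90, -1.47 and -1.71 in those on cholesterol diet. With TCPOBOP it lay at 0.78, 0.93 and 1.21 on standard and at 0.58, 0.87 and 1.10 on cholesterol diet. The vehicle groups did not overlap, the TCPOBOP groups did, and the response was 2.39-fold on standard and 4.07-fold on cholesterol diet. The difference was 0.77 (95% interval 0.37 to 1.17, unadjusted p = 0.000655, adjusted p = 0.0528 from limma).

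Slco1a4, an uptake transporter for organic anions and bile salts, had the same layout. It rose by 0.94 on standard and by 1.54 on cholesterol diet, with a difference of 0.60 (95% interval 0.19 to 1.02, adjusted p = 0.119), and in vehicle mice the cholesterol diet group was lower, with a diet difference of -1.0 (adjusted p = 4.02e-05). Of the 13 measured transporters of bile acids and xenobiotics, 4 had a difference with an unadjusted p under 0.05, all positive (beside 7.94% of all genes): Abcc3, Slco1a4, Abcb4 and Slc10a1. The other members did not reach it, and 0 of 13 passed after adjustment. Abcb4, which moves phospholipid into bile, fell by 0.41 on standard diet (adjusted p = 0.000554) and had a response of -0.04 on cholesterol diet, with a difference of 0.38 (95% interval 0.12 to 0.64). Slc10a1, which takes bile salts up from blood, fell by 0.23 and had a response of 0.10.

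The opposite tendency, toward a smaller response on cholesterol diet, was seen for Apoa4, Insig2 and Mlxipl. Apoa4, an apolipoprotein of triglyceride-rich particles, lay at -1.37, -0.99 and -0.80 in vehicle mice on standard diet and at 0.21, -0.30, -0.49, 0.06 and 0.09 in those on cholesterol diet. With TCPOBOP the levels were 0.44, 1.09 and 1.70 on standard and 0.36, 0.93 and 1.32 on cholesterol diet, so the treated groups overlapped while the vehicle groups did not. The response was 4.31-fold against 1.97-fold, with a difference of -1.13 (95% interval -1.73 to -0.53, unadjusted p = 0.000757, adjusted p = 0.0528 from limma).

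Insig2, which holds SREBP proteins in the endoplasmic reticulum, differed in the treated mice instead. Its vehicle groups overlapped, with medians of -0.75 on standard and -0.63 on cholesterol diet. With TCPOBOP it lay at 0.87, 1.13 and 1.28 on standard diet and at -0.15, 0.72 and 0.85 on cholesterol diet, with no overlap. It rose 3.58-fold and 2.26-fold, with a difference of -0.66 (95% interval -1.05 to -0.27, adjusted p = 0.0771).

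Mlxipl, the glucose-responsive factor also called ChREBP, rose by 0.81 on standard and by 0.30 on cholesterol diet (on that diet the call was lost in 8 of 16 alternatives, with an adjusted p up to 0.222), a difference of -0.51 (95% interval -0.81 to -0.20, adjusted p = 0.0832). Its vehicle mice on cholesterol diet, at 0.21, 0.07, 0.34, 0.32 and 0.28, all lay above those on standard diet, whose highest level was -0.52. Pla2g6, a calcium-independent phospholipase, was below background in all 6 vehicle mice on standard diet. Its response there was thus at least 1.75-fold, counted from the lowest signal above background on each array. The adjusted p of 4.80e-08 from limma belongs to its fitted log ratios, and the bound was not tested. On cholesterol diet the response of Pla2g6 was 1.53-fold, and the size of the difference has no measured limit.

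Some genes that passed on 1 diet only also tended to differ. Of the 46 genes past the threshold on standard diet only, 41 had the same sign on cholesterol diet and 11 had a difference with an unadjusted p under 0.05. Of the 30 on cholesterol diet only, 26 had the same sign on standard diet and 11 had such a difference. Both counts stand beside 13% of all genes. Genes picked for passing on 1 diet and not on the other already lean toward unequal responses. A higher share than 13% is thus built into the choice and adds no support. For 61 of these 76 genes the 95% interval of the difference stayed within 1 log2 unit, a limit that leaves room for smaller differences. Cyp4f14, named below for its tendency, lies inside it, and the same count over all genes was not made. Over all genes the median size of the difference was 0.11 and its interval typically reached 0.26 to either side. The limit is thus wide for most genes, and the 61 cannot be read as particular to these 76. Passing on 1 diet only is no test of a diet-dependent response.

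Cyp8b1, the sterol 12-alpha-hydroxylase that sets the cholic acid share of bile acids, lay at 0.43, 0.64 and 1.24 in vehicle mice on standard diet and at -2.58, -1.37 and -0.27 with TCPOBOP. On cholesterol diet the vehicle mice lay at 0.24, 0.51, -1.19, 0.00 and 0.25, and the treated mice at -0.88, -0.62 and 0.05. The treated mice were separated from vehicle on standard diet and overlapped with it on cholesterol diet. The paper reported lower Cyp8b1 with TCPOBOP on both diets, by RT-PCR and, at its less strict threshold, on the arrays. It fell by 2.04 (standard error 0.31, adjusted p = 1.51e-05) on standard diet, its response on cholesterol diet was -0.52 (standard error 0.33, adjusted p = 0.217), and the difference was 1.52 (95% interval 0.58 to 2.46, adjusted p = 0.0832 from limma).

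Cyp2e1, which oxidizes ethanol and fasting metabolites, fell by 0.69 (standard error 0.11, adjusted p = 1.51e-05) on standard diet and had a response of -0.11 (adjusted p = 0.480) on cholesterol diet. The difference was 0.58 (95% interval 0.26 to 0.90, adjusted p = 0.0528). Its vehicle mice on cholesterol diet ranged from -0.69 to 0.18 and overlapped with all 3 other groups.

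Cyp4f14, a hydroxylase of leukotrienes and long-chain fatty acids, behaved in the opposite way. It lay at -0.46, -0.21 and 0.02 in vehicle mice on standard diet and at 0.48, 0.43, 0.51, 0.74 and 0.68 in those on cholesterol diet. With TCPOBOP it lay at -0.63, -0.25 and -0.07 and at -0.21, -0.08 and 0.20. The vehicle mice on cholesterol diet all stood above the other 3 groups, and the gene fell by 0.63 (adjusted p = 3.76e-05) on that diet with a response of -0.04 (adjusted p = 0.763) on the other. The difference of -0.59 (95% interval -0.88 to -0.30) had the smallest unadjusted p of all genes, 0.000401 (adjusted p = 0.0528).

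Foxa2, a pioneer factor of hepatocytes, rose by 0.34 (adjusted p = 0.0118, lost in 5 of 16 alternatives with an adjusted p up to 0.867) on cholesterol diet and had a response of -0.19 (adjusted p = 0.125) on standard diet, a difference of 0.53 (95% interval 0.23 to 0.82, adjusted p = 0.0528). Its treated mice on cholesterol diet all lay above those on standard diet, whose highest level was -0.20, while replicate 1 of the former group was at -0.19. Ppp1r3c, which brings protein phosphatase 1 to glycogen, fell by 3.34 on standard diet and fell by 2.51 on cholesterol diet. Its vehicle mice lay at 0.58, 0.84 and 1.05 on standard diet and at -0.11, 0.40, 0.28, 0.41 and 0.53 on cholesterol diet, and its difference was 0.83 (95% interval 0.29 to 1.37, adjusted p = 0.0967).

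**Figure D3:**
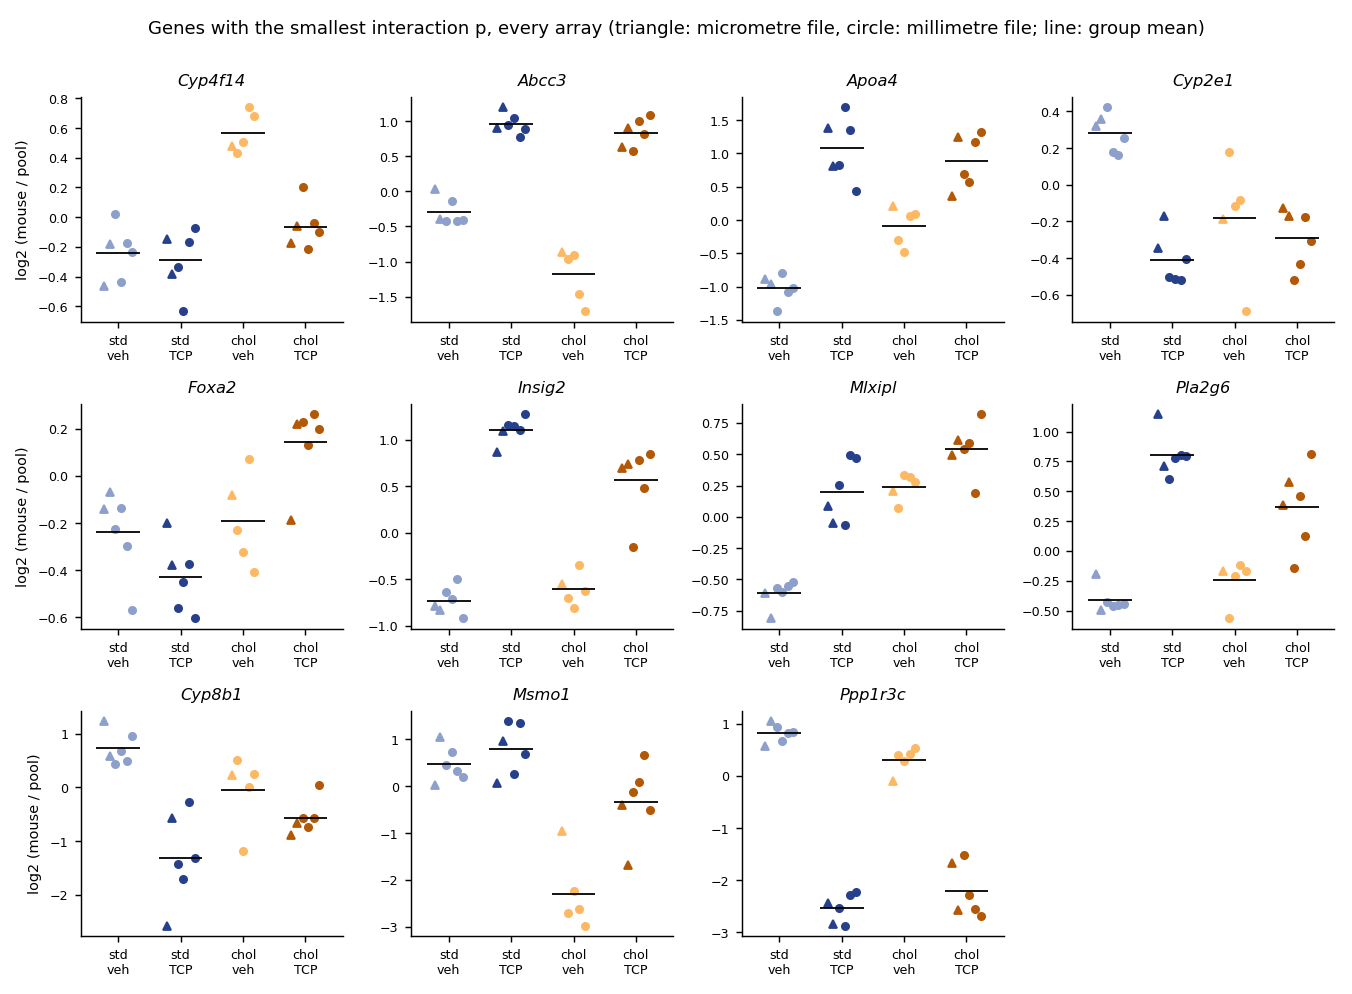
Log2 ratio of mouse to pool on every array for 11 of the 12 genes above background with the smallest unadjusted p for the difference between the responses, by group (std, standard diet; chol, cholesterol diet; veh, vehicle; TCP, TCPOBOP); triangles and circles mark the 2 kinds of scanner file and lines the group means. In the panels of Cyp4f14, Abcc3, Apoa4, Mlxipl, Msmo1 and Ppp1r3c the vehicle groups of the 2 diets do not overlap while the TCPOBOP groups do.

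The same contrast can be read as the diet difference in TCPOBOP mice minus that in vehicle mice. Between diets 40 of 277 genes (14.4%) passed in vehicle mice and 12 (4.33%) in TCPOBOP mice. Of the 36 genes with an unadjusted p under 0.05 for the difference of the responses, 19 passed between diets in vehicle mice and 5 in TCPOBOP mice, and the diet difference was larger in size in vehicle mice for 30. The interaction is built from these same groups, so the counts describe it and add no test.

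**Figure D4:**
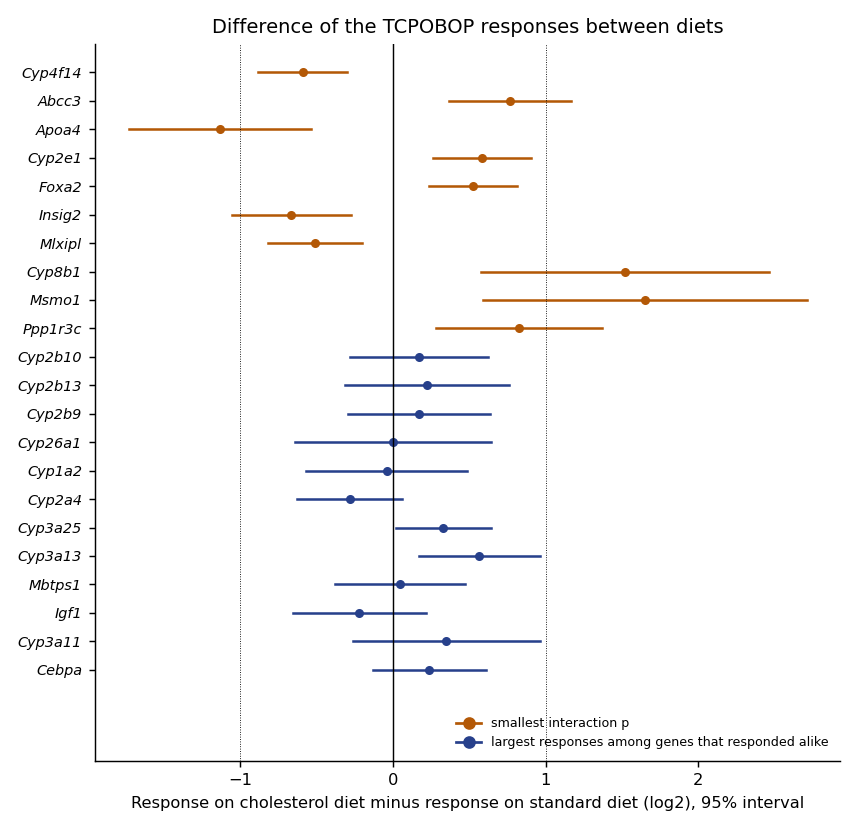
Difference between the responses (cholesterol diet minus standard diet, log2) with its 95% interval, for 10 of the 12 genes above background with the smallest unadjusted p (orange) and the 12 genes with the largest mean response among those that responded alike (blue); dotted lines mark a difference of 1 log2 unit either way. Intervals are widest for Cyp8b1 (0.58 to 2.46) and Msmo1 (0.59 to 2.71).

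Genes of cholesterol synthesis had different counts of calls with TCPOBOP on the 2 diets. Of 18 measured genes, 12 were higher on cholesterol diet, 2 lower and 4 did not pass, while on standard diet 1 was higher, 1 lower and 16 did not pass, beside 23.1% of all genes called higher on cholesterol and 22% on standard diet. In vehicle mice 13 of the 18 were lower on cholesterol diet than on standard diet, beside 9.75% of all genes, and in TCPOBOP mice 3 were, beside 3.61%. The difference between the responses was positive for 17 of 18 genes, with a median of 0.46 beside 0.01 over all genes, but 0 passed after adjustment and 3 had an unadjusted p under 0.05. The list holds genes that had been reported on these samples and its counts are no independent evidence. With 1 array left out at a time the calls of Acat2, Fdps, Lss and Nsdhl on cholesterol diet were lost for at least 1 array, with adjusted p-values up to 0.0959, 0.0899, 0.106 and 0.132.

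Msmo1 (Sc4mol in the files), a C-4 methylsterol oxidase, lay at 0.02, 0.39 and 1.06 in vehicle mice on standard diet and at 0.06, 0.83 and 1.39 with TCPOBOP. On cholesterol diet the vehicle mice lay at -0.96, -2.71, -2.25, -2.62 and -2.97, and the treated mice at -1.67, -0.26 and 0.66. Vehicle mice on cholesterol diet were thus below both groups on standard diet, and the treated mice overlapped with the single higher vehicle mouse, replicate 1. The response was 0.32 (standard error 0.35, adjusted p = 0.504) on standard and 1.97 (standard error 0.37, adjusted p = 0.000228) on cholesterol diet, and the difference 1.65 (95% interval 0.59 to 2.71, unadjusted p = 0.00388, adjusted p = 0.0895 from limma).

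Cyp51 (Cyp51a1 in the files), the lanosterol 14-alpha-demethylase, showed the same order of groups. Its vehicle mice on cholesterol diet lay at -0.43, -1.90, -1.42, -2.05 and -2.59, and the other 3 groups had medians of 0.49, 0.63 and -0.07 (vehicle and TCPOBOP on standard diet, TCPOBOP on cholesterol diet). The responses were 0.19 (adjusted p = 0.711) and 1.34 (adjusted p = 0.00597), with a difference of 1.15 (95% interval 0.10 to 2.20, adjusted p = 0.302).

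The early enzymes of the pathway gave smaller and less certain differences. Hmgcs1, which makes HMG-CoA, had a response of 0.52 (adjusted p = 0.225) on standard and rose by 1.29 (adjusted p = 0.00577) on cholesterol diet, with a difference of 0.76 (95% interval -0.23 to 1.76). Mvk and Mvd, the mevalonate kinase and the decarboxylase, had differences of 0.67 (95% interval -0.02 to 1.35) and 0.59 (95% interval -0.07 to 1.25). Fdps and Fdft1, which make farnesyl diphosphate and squalene, had differences of 0.83 (95% interval -0.22 to 1.88) and 0.81 (95% interval -0.05 to 1.66).

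Not every member followed. Acat2, the cytosolic thiolase at the start of the pathway, fell by 0.35 and by 0.33, with a difference of 0.02 (95% interval -0.32 to 0.36). Idi1, the isopentenyl diphosphate isomerase, fell by 0.36 on cholesterol diet and had a response of -0.14 on standard diet, and was the 1 member with a negative difference (-0.22, 95% interval -0.53 to 0.09). Sqle, the squalene epoxidase, was below background in all 5 vehicle mice on cholesterol diet, so its response there was at least 1.44-fold. For the fitted log ratios of Sqle the adjusted p was 0.00150 from limma, and the bound was not tested. Lss and Nsdhl, a cyclase and a sterol dehydrogenase, rose by 0.82 and 0.98 on cholesterol diet, with responses of 0.51 and 0.26 on standard diet that did not pass.

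The 2 kinds of scanner file, which give spot positions in micrometres (7 arrays) or millimetres (16 arrays), did not show this pattern equally. Over the mean of the 18 genes, vehicle mice on cholesterol diet ranged from -1.21 to -0.87 on the 4 millimetre arrays and the 1 micrometre array was at -0.26, while treated mice on that diet ranged from -0.45 to 0.29 and were at -0.76 and 0.10. Within the millimetre arrays the median difference of the responses was 0.62, 12 of 18 genes passed upward on cholesterol diet (19.9% of all genes did) and Msmo1 had a difference of 2.16 (standard error 0.38, adjusted p = 0.0163). Within the micrometre arrays the median was -0.04, 0 of 18 passed upward, and Msmo1 had a difference of -0.05 (standard error 0.96), from 1 vehicle and 2 treated mice on cholesterol diet. With the kind of file as a block the difference of Msmo1 was 1.66 (adjusted p = 0.104). Among the 36 genes with an unadjusted p under 0.05, the sign was the same within millimetre arrays for 36 and within micrometre arrays for 32.

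**Figure D5:**
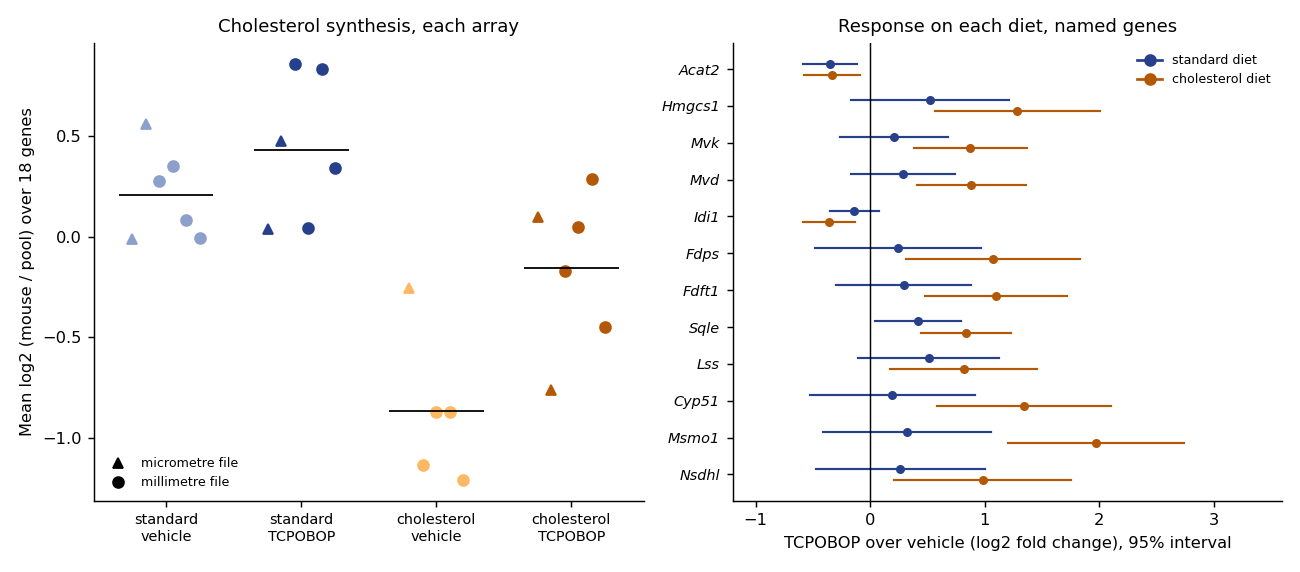
Left, the mean log2 ratio of mouse to pool over 18 cholesterol synthesis genes on each array, by group, with the group mean as a line; right, the log2 fold change of TCPOBOP over vehicle with its 95% interval on each diet for 12 of these genes. The vehicle mice on cholesterol diet lie between -1.21 and -0.26, the highest being the 1 micrometre array of that group, and on the right the orange points lie further from 0 than the blue ones for all genes but Acat2; the orange point of Sqle is a fitted value against a group below background.

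Promoter sequence of 3 of these genes is shown because 12 of the 18 members passed in 1 direction on cholesterol diet. The stretches are the 250 bases before the RefSeq start on GRCm38.p6, 5′ to 3′ on the strand of the gene, with CCAAT, the box bound by NF-Y, and AGGTCA, a core motif of nuclear receptors, in capitals on either strand (there they read as ATTGG and as TGACCT). Msmo1 is at chr8:64733579-64733828 (minus strand), Cyp51 at chr5:4104698-4104947 (minus strand) and Hmgcs1 at chr13:119690101-119690350 (plus strand).
Msmo1: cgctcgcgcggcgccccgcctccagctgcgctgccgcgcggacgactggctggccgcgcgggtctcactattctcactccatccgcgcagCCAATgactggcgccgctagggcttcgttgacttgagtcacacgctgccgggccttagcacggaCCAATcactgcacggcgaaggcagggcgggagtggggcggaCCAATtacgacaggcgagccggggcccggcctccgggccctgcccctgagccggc
Cyp51: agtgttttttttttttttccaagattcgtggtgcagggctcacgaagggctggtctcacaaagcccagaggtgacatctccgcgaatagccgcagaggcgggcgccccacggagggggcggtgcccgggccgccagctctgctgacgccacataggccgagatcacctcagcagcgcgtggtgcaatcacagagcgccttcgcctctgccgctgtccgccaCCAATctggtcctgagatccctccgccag
Hmgcs1: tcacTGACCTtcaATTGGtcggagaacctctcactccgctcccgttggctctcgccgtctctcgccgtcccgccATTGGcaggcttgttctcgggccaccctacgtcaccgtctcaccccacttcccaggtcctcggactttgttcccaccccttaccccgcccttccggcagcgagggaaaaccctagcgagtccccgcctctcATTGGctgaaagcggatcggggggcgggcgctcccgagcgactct

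In the windows from 250 bases before to 50 after the start, CCAAT on either strand was found for 12 of the 13 cholesterol synthesis genes that the RefSeq table holds (92.3%), and for 41.1% of all 27025 genes and 51.9% of the 206 genes of the array. AGGTCA on either strand was found for 2 of 13 (15.4%) and for 18.1% of all genes. A sterol regulatory element was searched as 1 exact decamer on both strands. It was found for 0 of 13, for 0.0999% of all genes and for 0.971% of those of the array. At so low a share over all genes, 0 of 13 could hardly have come out otherwise. It does not show that these genes lack the element, since sites that differ in a letter were not searched. Msmo1 and Hmgcs1 hold 3 CCAAT boxes each in the bases shown and Cyp51 1. A match is a description of letters only, and no match says only that the letters searched are not in this window.

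In the SREBP and sterol sensing list, 5 of 8 measured genes were higher on each diet, beside 22% (standard) and 23.1% (cholesterol) of all genes, and 1 was lower on cholesterol diet, beside 14.4%. Insig1, a paralog of Insig2 and itself a target of SREBP, rose by 0.75 and 0.58 (on cholesterol diet the adjusted p reached 0.0876 with 1 array left out), with a difference of -0.17 (95% interval -0.76 to 0.41). Mbtps2, the site-2 protease, rose by 0.30 and 0.25, but was above background on 10 of 23 arrays, and its calls were lost in 3 (standard) and 5 (cholesterol) of 13 alternatives (adjusted p up to 0.119 and 0.280). Without cholesterol vehicle replicate 1 the adjusted p on cholesterol diet was 0.0587. The gene called lower on cholesterol diet was Srebf1, which lay below background on every array and gets no fold.

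Among the bile acid synthesis genes other than Cyp8b1, Cyp39a1 and Cyp27a1 responded alike. Cyp39a1, an oxysterol 7-alpha-hydroxylase, rose by 0.99 and 0.76 (interval of the difference -0.51 to 0.04). Cyp27a1, the sterol 27-hydroxylase of the acidic pathway, rose by 0.66 and 0.49 (interval -0.48 to 0.15). Cyp7b1, which acts after it, rose by 0.21 on standard diet (adjusted p = 0.0459) and had a response of 0.21 on cholesterol diet (adjusted p = 0.0660), with a difference of 0.00 (95% interval -0.25 to 0.25), and its call was lost in 17 of the 23 fits that each left out 1 array (adjusted p up to 0.108). Cyp46a1, a sterol 24-hydroxylase, rose by 0.37 on standard diet. It was below background in every vehicle mouse on cholesterol diet, where its response was at least 1.08-fold, a bound that was not tested. For its fitted log ratios there the adjusted p was 0.0183 from limma, up to 0.0571 with 1 array left out. Cyp7a1, the rate-limiting enzyme of the main pathway, had responses of -0.22 and -0.05 that did not pass; it falls outside the rule for named genes and was added after its values were seen.

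Abcg5 and Abcg8, which pair to form the sterol exporter of the bile canaliculus, passed downward on cholesterol diet and did not pass on standard diet. Abcg8 fell by 0.99 (standard error 0.26, adjusted p = 0.00553) there and had a response of -0.05 (adjusted p = 0.900) on standard diet, with a difference of -0.94 (95% interval -1.70 to -0.18, adjusted p = 0.206). Over 16 alternatives the response of Abcg8 on cholesterol diet ran from -1.29 to -0.08 and its difference from -1.25 to -0.02. Abcg5 fell by 0.85 and had a response of -0.13, with a difference of -0.72 (95% interval -1.41 to -0.03, adjusted p = 0.333). The 2 vehicle mice on cholesterol diet with the highest Abcg8, at 0.93 and 1.48, were also those with the highest Abcg5, at 0.72 and 1.46, and the groups overlapped for both genes. They were the 2 of 7 sterol transporter genes with a difference at an unadjusted p under 0.05, beside 13% of all genes.

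Scd1, the desaturase that makes oleic acid, was among the least precise measurements. Its vehicle mice on cholesterol diet lay at 0.29, -0.86, 0.66, 1.81 and 1.16 and its treated mice at -2.34, -0.77 and 0.70. It fell by 1.39 (standard error 0.46, adjusted p = 0.0235, up to 0.0776 with 1 array left out) on cholesterol diet, with a response of 0.26 (standard error 0.44) on standard diet, and the difference was -1.65 (95% interval -2.98 to -0.31, adjusted p = 0.206). Cpt1a, the carnitine transferase that admits fatty acids to mitochondria, fell by 0.85 (adjusted p = 6.83e-05) on standard diet and had a response of -0.37 (adjusted p = 0.0631) on cholesterol diet, with a difference of 0.48 (95% interval 0.04 to 0.92).

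Of 8 acute phase genes 6 were lower with TCPOBOP on standard and 5 on cholesterol diet, where 1 was higher, and of 7 complement and coagulation genes 6 and 3 were lower, beside 21.3% and 14.4% of all genes. C4bp, which restrains complement, fell by 1.13 and by 0.63, with a difference of 0.50 (95% interval 0.06 to 0.93, adjusted p = 0.277). Apcs, the serum amyloid P component, had responses of -0.33 and 0.69 that did not pass, and a difference of 1.01 (95% interval 0.14 to 1.88, adjusted p = 0.260). Saa1, a serum amyloid A gene named here after its values were seen, fell by 3.48 and by 3.13, but its interval for the difference ran from -1.82 to 2.53.

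Most regulators did not reach an unadjusted p under 0.05 for the difference. Of 31 nuclear receptors and co-regulators, 4 did, 2 in each direction, a share close to the 13% of all genes. Nr1i3, the gene of CAR itself, fell by 0.71 (adjusted p = 0.000462) on standard diet and had a response of -0.26 (adjusted p = 0.185) on cholesterol diet, with a difference of 0.45 (95% interval 0.01 to 0.89, adjusted p = 0.341). Pparg, whose difference of 0.49 (95% interval 0.23 to 0.76) had the adjusted p of 0.0528, was above background on 11 of 23 arrays. Stat3, a mediator of cytokine signals, fell by 0.35 on standard diet with a difference of 0.34 (95% interval 0.03 to 0.65). In the circadian clock list, 0 of 9 genes had a difference with an unadjusted p under 0.05: Nr1d2 rose by 0.68 and 1.11 and Cry1 fell by 0.49 and by 0.62. Hmox1, which breaks heme down, had a response of -0.20 on both diets that did not pass (interval of the difference -0.35 to 0.35).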

How the data were processed

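Liver RNA of 23 mice had been hybridized in Cy3 against a Cy5 pool on Steroltalk v2 cDNA arrays. The mean spot intensity and local background of both channels were deposited by the authors without background subtraction or normalization. The authors also deposited a table of log2 ratios with 1 value per probe, whose normalization is not given in the sources used here. Its column medians ran from -0.421 to 0.203, and per array its columns correlated with the ratios computed here at a Pearson's r between 0.917 and 0.996. The table served as an alternative, and 18 columns of samples outside the 4 groups were not used.

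Background was corrected with normexp (offset 50), arrays were normalized by loess over mouse spots, and 3 to 6 spots were averaged per probe. There were 284 probes and 277 genes, and the brightest probe stood for each of 6 genes that had more than 1. Probes were named by symbol (220), synonym (50) or the name in the file (14). A spot counted as above background where its mean passed the background median plus 2 SDs. Group means of 4 groups were fitted with limma 3.58.1 (lmFit, eBayes) in R 4.3.3, with p-values adjusted by Benjamini and Hochberg over 277 genes; Python 3.11.15 and matplotlib drew the plots. The fit was tested on simulated data. Replicates are separate mice.

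The members, lists and rule were chosen with earlier results of these data known. Named were the 12 genes above background on at least 12 of 23 arrays with the smallest interaction p, the 12 genes responding alike with the largest mean response, members of the cholesterol synthesis, SREBP and bile acid synthesis lists that passed on 1 diet or more, and up to 4 genes of each other list. Some genes are not reported by name; they stay in the fits, lists and counts. Alternatives changed the background correction, normalization, summary, filter, test, threshold, blocks and arrays used.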

Additional observations from a re-analysis of the deposited data

Results flagged for a closer look

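Within the 4 groups, 224 combinations of a named gene and a group of 5 or 6 arrays were checked for an array far from the rest of its group, and 23 stood apart, beside about 1 in 20 that chance gives. Each is given as its log2 ratio with the nearest array of the group, and 0 arrays had more than 3.

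In TCPOBOP mice on cholesterol diet, replicate 1 stood apart for Foxa2 (-0.19, nearest 0.13), Cyp7b1 (0.069, nearest 0.24) and Hmox1 (-0.74, nearest -0.24). Replicate 3 did so for Insig2 (-0.15, nearest 0.49), Cyp1a2 (0.28, nearest 0.87) and Cry1 (0.29, nearest -0.30). Replicate 6 did so for Cyp8b1 (0.048, nearest -0.57), Cyp2b9 (1.33, nearest 1.06) and Mbtps2 (0.34, nearest 0.07). Replicate 5 stood apart for Idi1 (-0.52, nearest -0.22) and Abcg5 (-0.88, nearest -0.45).

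In TCPOBOP mice on standard diet, replicate 5 stood apart for Cyp2a4 (1.78, nearest 1.39), Igf1 (-1.49, nearest -1.07) and Cpt1a (-1.04, nearest -0.51), and replicate 1 for Pla2g6 (1.15, nearest 0.80).

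In vehicle mice on standard diet, replicate 1 stood apart for Pla2g6 (-0.19, nearest -0.43) and Insig1 (-0.91, nearest -0.34). Replicate 2 did so for Mlxipl (-0.81, nearest -0.61) and Sqle (0.69, nearest 0.24), and replicate 6 for Scd1 (-1.76, nearest -0.82). In vehicle mice on cholesterol diet, replicate 3 stood apart for Pla2g6 (-0.57, nearest -0.21), replicate 5 for C4bp (-0.21, nearest 0.13) and replicate 6 for Nr1i3 (-0.73, nearest -0.09).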

How the results depend on the processing

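Loess over the mouse spots, limma and the 23 arrays together gave 0 adjusted calls for the difference of the responses. There were 3 (Abcc3, Apoa4 and Cyp4f14) with dim probes left out, 1 (Msmo1) within the millimetre arrays, 17 at the study's threshold, and 4 (Abcc3, Apoa4, Cyp2e1 and Cyp4f14) with the layout of the file as a block, which was chosen after seeing the data. With 1 array left out the count was 0 to 6. It was 1 without standard vehicle replicate 3 or standard TCPOBOP replicates 4 or 6, 4 without cholesterol vehicle replicate 4, 5 without cholesterol vehicle replicate 1, and 6 without standard TCPOBOP replicate 2, cholesterol vehicle replicate 3 or cholesterol TCPOBOP replicate 3. The 36 genes at an unadjusted p under 0.05 became 19 within micrometre arrays, 21 with the deposited ratios and cholesterol vehicle replicate 2 added, and 29 to 45 with 1 array left out.

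Calls on standard diet (120) became 74 with centring on spike-in spots, 72 with the deposited ratios (180 genes), 73 with the added replicate (183 genes), 33 within micrometre arrays and 109 to 123 with 1 array left out. Calls on cholesterol diet (104) became 66, 64 with the deposited ratios, 25 within micrometre arrays and 85 to 113. Calls on both diets (74) became 41, 40, 43 with the added replicate, 17 within micrometre arrays and 65 to 81, and calls on 1 diet (76) 24 within micrometre arrays and 64 to 78. The 62 genes that responded alike became 38 under median centring, 27 with spike-in spots, 28 with the deposited ratios, 32 with the added replicate, 11 within micrometre arrays, 35 within millimetre arrays and 50 to 67. Each kind of scanner file holds only part of the arrays and the deposited ratios cover fewer genes. The cause of these changes was not tested.

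The median difference of the cholesterol synthesis genes, 0.46, was -0.039 within micrometre arrays and 0.37 to 0.58 with 1 array left out. In the micrometre arrays the difference turned for 4 of the 36 genes with an unadjusted p under 0.05, among them Msmo1 (-0.046), Abcg5 (0.27) and Stat3 (-0.092). It also turned for genes above that p, among them Cyp2b10 (-0.65), Cyp2b13 (-0.50), Cyp2b9 (-0.74), Alas1 (-0.81), Hmgcs1 (-0.24), Fdft1 (-0.10) and Fdps (-0.050). On cholesterol diet the response turned for Msmo1 (-0.071), Hmgcs1 (-0.076), Mvk (-0.018), Mvd (-0.20), Fdps (-0.26), Fdft1 (-0.25), Cyp51 (-0.14), Nsdhl (-0.21), Cyp46a1 (-0.0011) and Abcg5 (0.011). Over all genes of the deposited ratios the median difference was 0.12, which shifts each of their differences.

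With the replicate number as a block the count of interaction calls was 0 (smallest adjusted p 0.0535). Of 33 same-numbered pairs, 14 had a correlation over 0.1, and 6 of 23 arrays correlated best with their own number. No share expected by chance stands beside these counts, so they do not settle whether the numbers pair the mice. The arrays numbered 1 or 2 all had micrometre files and those with higher numbers millimetre files, so the number follows the kind of file.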

Other observations

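Genes of glucose metabolism gave further values, chosen after they were seen. Of 14 measured, 3 were higher and 4 lower on each diet, beside 22% and 21.3% of all genes on standard and 23.1% and 14.4% on cholesterol diet. G6pc, which releases free glucose from the hepatocyte, fell by 1.24 (adjusted p = 0.00309 from limma) on cholesterol diet and had a response of -0.49 (adjusted p = 0.191) on standard diet, and the difference was -0.75 (95% interval -1.62 to 0.13). Pck1, which commits carbon to gluconeogenesis, fell by 0.49 (adjusted p = 0.0209) on standard diet and had a response of -0.37 (adjusted p = 0.0951) on cholesterol diet. Kat2b, an acetyltransferase, fell by 0.29 (adjusted p = 0.00498) on standard diet and had a response of 0.03 on cholesterol diet, with a difference of 0.32 (95% interval 0.09 to 0.56, adjusted p = 0.152).

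Of 4 reference genes, 2 were called higher with TCPOBOP on standard diet and 0 on cholesterol diet, beside 22% and 23.1% of all genes. Actb had a response of 0.63 (adjusted p = 0.0162 from limma) on standard and -0.03 on cholesterol diet, with a difference of -0.66 (95% interval -1.28 to -0.05, adjusted p = 0.302). Ppia responded by 0.31 and 0.27 and Gapdh by 0.19 and -0.20, and their part in the other results was not tested.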
